A study of Solanum lycopersicum x Solanum pennellii and Solanum lycopersicum with 17 samples.

Results

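The chlorophyll a/b-binding (CAB) genes of young tomato fruit were measured in carpels of 3 introgression lines and of the cultivar M82. The genes were taken as every probe set whose gene symbol in the platform annotation is CAB followed by a digit. That gave 3 probe sets of 3 genes among the 10038 probe sets tested, of which 909 carry a symbol. They were CAB4 (NCBI gene 543975), CAB5 (gene 543976) and CAB6A (gene 544310), each with 1 probe set. No other probe set bore a light-harvesting symbol, so genes of the family without a symbol here were not analysed.

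Carpels were taken 7 days after pollination from greenhouse-grown tomato plants, and RNA of each sample was hybridised to 1 Affymetrix array. There were 4 arrays of IL-1_1, 3 of IL-1_4, 4 of IL-2_3 and 6 of M82, whose title also calls it a seed control and whose line is given as parental. In an introgression line a defined piece of M82's genome is replaced by that of Solanum pennellii, a wild relative, here on chromosome 1 for IL-1_1 and IL-1_4 and of chromosome 2 for IL-2_3. The lines are named hybrids in the design text, but whether the plants sampled carried 1 or 2 copies of the segment is not stated there. Genome positions were not used here, so whether a CAB gene lies in an introgressed segment was not examined. Whether the replicates are separate plants is not stated. The p-values therefore reflect only how much these arrays vary, which may be technical.

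CAB proteins bind chlorophyll and carotenoids in the thylakoid membrane of the chloroplast and pass the light energy they absorb to a photosystem. They are encoded in the nucleus, and their transcripts are known to depend on light, on the circadian clock and on the state of the plastid. A tomato carpel after pollination becomes a green fruit with photosynthetic chloroplasts, which later turn into chromoplasts as the fruit ripens. CAB4 and CAB5 encode proteins of the antenna of photosystem II. CAB6A encodes a type I protein of the antenna of photosystem I.

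None of the 3 CAB genes differed between a line and M82 beyond the spread between arrays. The spread was wide: within the 6 M82 arrays alone the CAB4 level spanned 10.5-fold, and log2 levels of CAB5 spanned 4.13. The 3 genes were low together in the same arrays and high together in others. The low arrays were IL-1_1 replicate 1, IL-2_3 replicate 4 and M82 replicate 1. They were also the 3 arrays farthest along the first principal component of the within-group variation. That component held 47.3% of the within-group variance over all probe sets, so these arrays stood apart in many other genes too. The values below are log2 probe set intensities, in which a difference of 1 is a doubling of intensity if the log base is 2, as inferred from the range of the values. In bulk tissue, fewer green cells and less CAB RNA per cell cannot be told apart.

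CAB4 had log2 levels of 10.27, 12.87, 13.12 and 11.45 in IL-1_1 replicates 1 to 4, of 13.03, 13.11 and 12.97 in IL-1_4 replicates 1 to 3, and of 13.08, 12.67, 13.00 and 11.44 in IL-2_3 replicates 1 to 4. In M82 its lowest, median and highest log2 levels were 10.17, 12.67 and 13.56. Replicate 1 of IL-1_1, replicate 4 of IL-2_3 and replicate 1 of M82 were the lowest of their groups, and every group overlapped the others. The means were 11.93 ± 1.33 in IL-1_1 (SD, n = 4), 13.04 ± 0.07 in IL-1_4 (n = 3), 12.55 ± 0.76 in IL-2_3 (n = 4) and 12.40 ± 1.18 in M82 (n = 6). Ordered by mean, IL-1_4 came first, then IL-2_3, M82 and IL-1_1, and no 2 groups of that order differed beyond their spread.

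CAB5, the other photosystem II antenna gene, had log2 levels of 5.50, 7.81, 8.32 and 6.62 in IL-1_1, of 7.88, 8.22 and 7.62 in IL-1_4, and of 8.26, 6.16, 8.72 and 5.22 in IL-2_3. Across the M82 arrays the lowest, median and highest were 5.25, 7.31 and 9.38. The same arrays were lowest as for CAB4, replicate 4 of M82 was highest, and all groups overlapped. The lowest CAB5 levels lie close to those of the pollen receptor kinase genes, which reached 5.01, and signal over background was not examined, so its differences are given on the log2 scale and not as folds. CAB5 averaged 7.06 ± 1.26 in IL-1_1 (SD, n = 4), 7.91 ± 0.30 in IL-1_4 (n = 3), 7.09 ± 1.67 in IL-2_3 (n = 4) and 7.42 ± 1.66 in M82 (n = 6). Its order of means was IL-1_4, M82, IL-2_3 and IL-1_1, again without a difference between any 2 groups that passed the test.

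CAB6A, the photosystem I antenna gene, had log2 levels of 12.22, 13.22, 13.13 and 12.68 in IL-1_1, of 12.81, 12.96 and 12.89 in IL-1_4, and of 13.26, 12.75, 13.30 and 12.09 in IL-2_3. In M82 the lowest, median and highest were 11.44, 12.85 and 13.45. Its lowest and highest arrays in M82 were those of CAB4 and CAB5, and the groups overlapped. The means were 12.81 ± 0.46 in IL-1_1 (SD, n = 4), 12.89 ± 0.08 in IL-1_4 (n = 3), 12.85 ± 0.57 in IL-2_3 (n = 4) and 12.71 ± 0.69 in M82 (n = 6). All 4 means lay closer together than the arrays of M82 did.

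**Figure D1:**
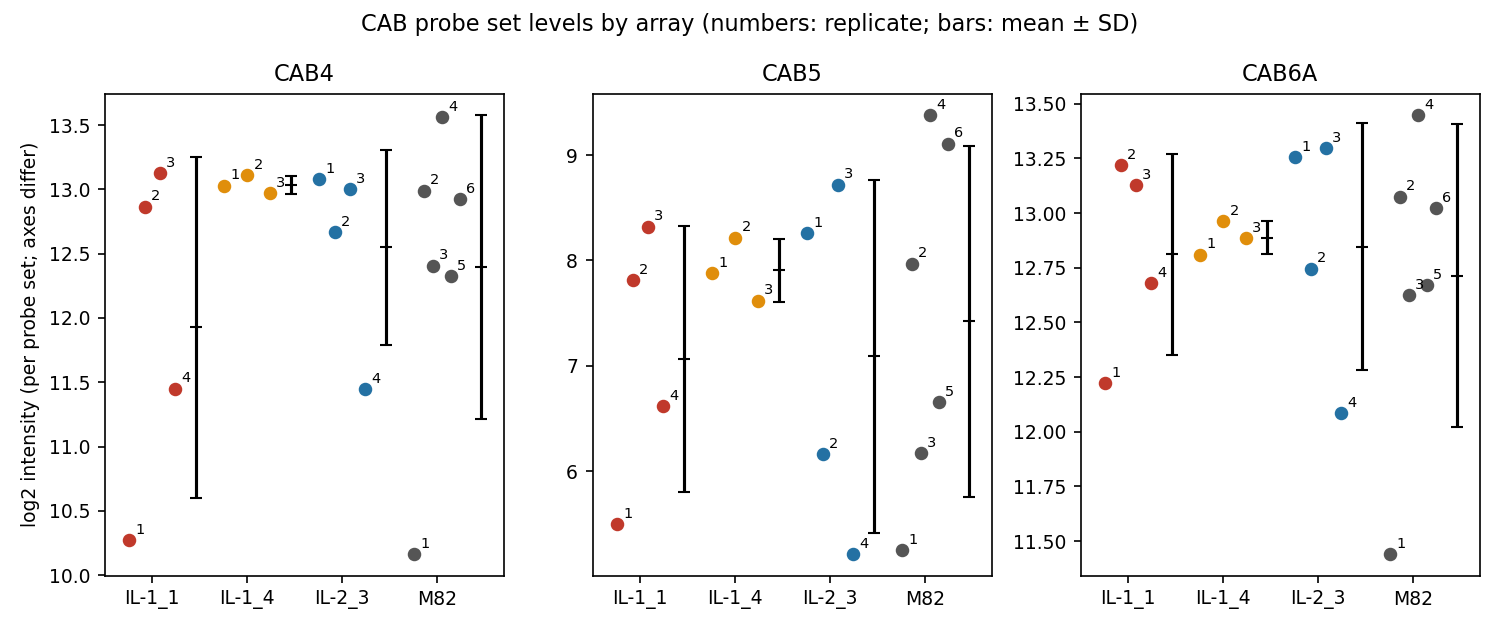
Log2 intensity of CAB4, CAB5 and CAB6A (vertical axes, different for each gene) in each array of IL-1_1, IL-1_4, IL-2_3 and M82, with the replicate number beside each point and the group mean ± SD at the right of each group. IL-1_1 replicate 1, IL-2_3 replicate 4 and M82 replicate 1 lie lowest in their groups for all 3 genes, and the IL-1_4 arrays lie close together.

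The design sets each line against M82. In limma's moderated test over all probe sets, 0 of 3 CAB genes were called in IL-1_1, where 12.3% of all probe sets were called. In IL-1_4 it was 0 of 3 against a background of 0.648%, and in IL-2_3 0 of 3 against 0.907%. No CAB gene reached an unadjusted p of 0.05 in any of these comparisons either. The arrays of line and M82 overlapped for all 3 genes, while 7.35%, 2.6% and 1.54% of all probe sets had groups that do not overlap for the lines in the order IL-1_1, IL-1_4, IL-2_3. The comparisons share the M82 arrays.

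The CAB4 level differed from M82 by -0.47 on the log2 scale in IL-1_1 (SE 0.62, 95% interval -1.79 to 0.86, limma adjusted p = 0.609). In IL-1_4 the difference was 0.64 (SE 0.68, interval -0.81 to 2.09, adjusted p = 1) and in IL-2_3 it was 0.15 (SE 0.62, interval -1.17 to 1.48, adjusted p = 0.999). For CAB4 in IL-1_1 the interval runs from 0.289-fold to 1.81-fold of M82. These arrays do not exclude a change within that interval.

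For CAB5 the intervals were wider still. Its log2 difference from M82 was -0.36 in IL-1_1 (SE 0.87, interval -2.20 to 1.48, limma adjusted p = 0.781), 0.48 in IL-1_4 (interval -1.54 to 2.50) and -0.33 in IL-2_3 (interval -2.18 to 1.51). The narrowest were those of CAB6A, with log2 differences of 0.10 in IL-1_1 (SE 0.33, interval -0.61 to 0.81, adjusted p = 0.847), 0.17 in IL-1_4 (interval -0.61 to 0.95) and 0.13 in IL-2_3 (interval -0.58 to 0.84). The median difference of the 3 genes was -0.36 for IL-1_1, 0.48 for IL-1_4 and 0.13 for IL-2_3, beside -0.02, 0.02 and 0.003 over all probe sets.

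Without IL-1_1 replicate 1, IL-2_3 replicate 4 and M82 replicate 1, the log2 difference of CAB4 from M82 was -0.36 for IL-1_1, 0.20 for IL-1_4 and 0.077 for IL-2_3. That of CAB5 was then -0.27 for IL-1_1, 0.048 for IL-1_4 and -0.14 for IL-2_3, and that of CAB6A was 0.040 for IL-1_1, -0.082 for IL-1_4 and 0.13 for IL-2_3. The sign of the CAB6A difference in IL-1_4 turned, and no CAB gene was called. Leaving out IL-1_1 replicate 1 alone gave 0.085 for CAB4 in IL-1_1 against M82, and leaving out M82 replicate 1 alone gave -0.91.

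**Figure D2:**
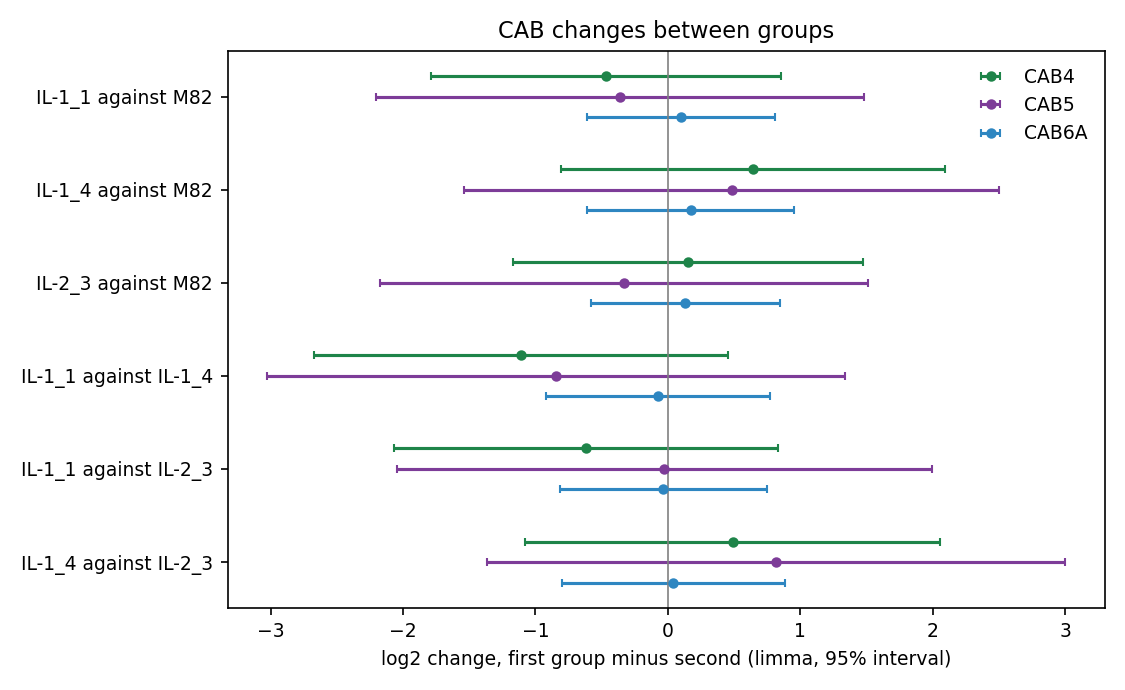
Log2 change of CAB4, CAB5 and CAB6A (points) with its 95% interval (bars, limma) in the 6 comparisons, the group named first minus the second. Every interval crosses 0, and those of CAB5 are the widest of the 3 genes in each comparison.

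The lines were also set against each other. In IL-1_1 against IL-1_4, both with a chromosome 1 segment, 0 of 3 CAB genes were called against 17.7% of all probe sets. It was 0 of 3 against 4.91% in IL-1_1 against IL-2_3, and 0 of 3 against 1.55% in IL-1_4 against IL-2_3, with none at an unadjusted p of 0.05. The difference farthest from 0 was that of CAB4 in IL-1_1 against IL-1_4, at -1.11 on the log2 scale (SE 0.74, interval -2.68 to 0.46, limma adjusted p = 0.279). For CAB4, 3 of the 4 IL-1_1 arrays were below every IL-1_4 array and 1 was above. All 3 genes overlapped between each 2 lines, while 40% of all probe sets did not overlap between IL-1_1 and IL-1_4, 11.1% between IL-1_1 and IL-2_3 and 17.3% between IL-1_4 and IL-2_3. A covariate was also added for each array's score on the first principal component of the within-group variation. With it CAB4 was called in IL-1_1 against IL-1_4 (SE 0.36, limma adjusted p = 0.0237). That score is uncorrelated with the groups by construction, so the difference could not change in size. More of all probe sets were called in that comparison with the covariate than the 17.7% above, and the counts are given further below. With a score that kept the group means, a form chosen after the first had been seen, the CAB4 difference was 0.34 (adjusted p = 0.654). CAB6A was then called in IL-1_1 against M82 (0.73, adjusted p = 0.0492). Both scores were estimated from these arrays, the CAB probe sets included.

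CAB4 and CAB5 were among the probe sets that varied most within groups, and CAB6A less so. The pooled within-group SD was 1.04 for CAB4, 1.45 for CAB5 and 0.554 for CAB6A on the log2 scale, against a median of 0.225 over all probe sets tested. These values stand at the 98.4th, 99.6th and 89.8th percentile of all probe sets. Differences between group means made up 13.5% of the variance of CAB4, 5.43% of that of CAB5 and 1.87% of that of CAB6A, where the median probe set had 29.7%.

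**Figure D3:**
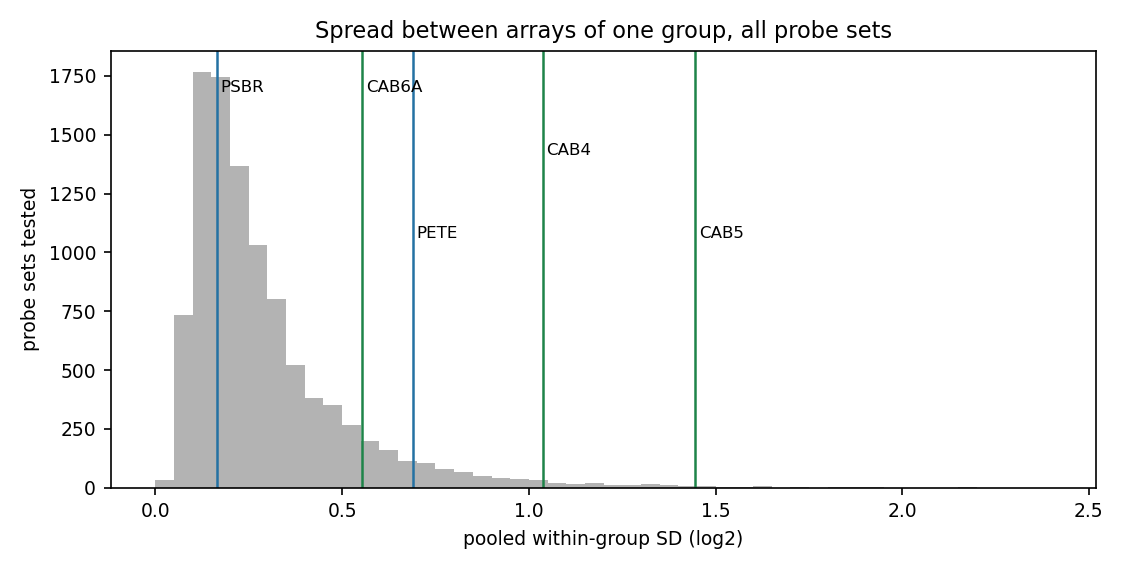
Number of probe sets (vertical axis) by their pooled within-group SD on the log2 scale (horizontal axis), with lines at CAB4, CAB5 and CAB6A and at the photosystem genes PETE and PSBR. CAB4 at 1.04 and CAB5 at 1.45 lie in the upper tail, and PSBR at 0.165 lies below the median of 0.225.

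The spread was unequal between groups. CAB4 spanned 7.22-fold in IL-1_1, 1.10-fold in IL-1_4, 3.11-fold in IL-2_3 and 10.5-fold in M82. Log2 levels of CAB5 spanned 2.82 in IL-1_1, 0.60 in IL-1_4, 3.50 in IL-2_3 and 4.13 in M82. CAB6A spanned less than CAB4 in every group but IL-1_4, with 1.11-fold in IL-1_4, 2.32-fold in IL-2_3 and 4.01-fold in M82. Over all probe sets the median SD was also smallest in IL-1_4, at 0.114, against 0.222 in IL-1_1, 0.185 in IL-2_3 and 0.233 in M82. IL-1_4 has 3 arrays, the fewest.

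The 3 genes moved together from array to array. Over the 17 arrays, Pearson's r was 0.90 between CAB4 and CAB6A (Spearman's rho 0.84), 0.88 between CAB5 and CAB6A (rho 0.90) and 0.84 between CAB4 and CAB5 (rho 0.87). With group means subtracted r was 0.95, 0.91 and 0.86 for these pairs, and rho was 0.87, 0.92 and 0.85. In permutation tests of 6 relations, the Benjamini-Hochberg adjusted p was between 2e-05 and 5e-05 for r and between 6e-05 and 3e-04 for rho. The smallest raw p that the permutations can give, 1e-05, was reached by r of all 3 pairs before subtraction. Without the 2 arrays farthest from the median of the gene named first, r was 0.84, 0.89 and 0.83. Before subtraction, 4.35% of all probe sets had an r with CAB4 at least as high as that of CAB5, and 1.79% at least as high as that of CAB6A. Seen from CAB5, 1.16% reached the r of CAB4 and 0.608% that of CAB6A. Seen from CAB6A, 0.628% reached the r of CAB4 and 0.956% that of CAB5. With group means subtracted these 6 shares ran from 0.438% to 5.45%.

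**Figure D4:**
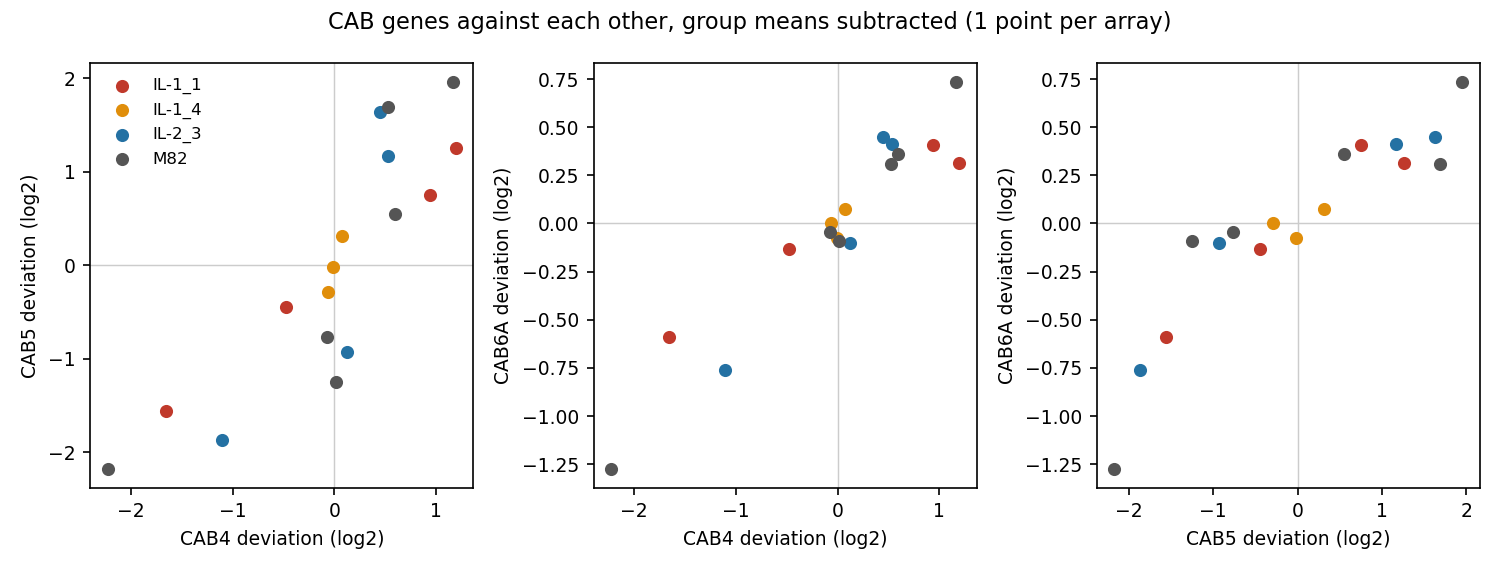
Deviation of each array from its group mean on the log2 scale, 1 CAB gene on each axis and 1 point per array, coloured by group. The arrays run along a rising line in all 3 panels, with r of 0.86 for CAB4 and CAB5, 0.95 for CAB4 and CAB6A and 0.91 for CAB5 and CAB6A.

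Whether 2 CAB genes changed unequally was tested on their log2 difference within each array. The difference of CAB4 minus CAB6A averaged -0.88 ± 0.88 in IL-1_1 (SD, n = 4), 0.15 ± 0.07 in IL-1_4 (n = 3) and -0.30 ± 0.25 in IL-2_3 (n = 4), against -0.32 ± 0.49 in M82 (n = 6). The lowest of the 9 two-sided exact permutation p-values was that of IL-1_4 against M82 for this pair (p = 0.131, adjusted p = 0.916). None of the 9 tests passed, and 3 arrays against 6 cannot give a p below 0.0119 and 4 against 6 none below 0.00476.

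The photosystem genes and GSA-AT were lowest in the same arrays as the CAB genes. The list of photosystem and electron transport genes matched 5 probe sets: PETE (plastocyanin, which carries electrons to photosystem I), PSBO, PSBP and PsbQ (extrinsic proteins of the oxygen-evolving complex) and PSBR (a small photosystem II polypeptide). GSA-AT, an enzyme of early tetrapyrrole synthesis on the way to chlorophyll, was the only match of the chlorophyll list. For all 9 probe sets, the 3 CAB genes included, the lowest array was replicate 1 in IL-1_1, replicate 4 in IL-2_3 and replicate 1 in M82. That held together for 13% of all probe sets tested. Replicate 4 was the highest M82 array for 9 of 9, as it was for 14.1% of all probe sets. In the lines the highest array was shared less widely, by 5 of 9 probe sets in IL-1_1, 6 of 9 in IL-1_4 and 7 of 9 in IL-2_3.

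PETE had log2 levels of 11.23, 13.11, 13.13 and 12.49 in IL-1_1, of 13.04, 13.07 and 13.04 in IL-1_4 and of 13.10, 12.68, 13.16 and 12.00 in IL-2_3, against a lowest, median and highest of 11.36, 13.12 and 13.38 in M82. The groups overlapped, and the low arrays were those of the CAB genes. PSBR, which had the smallest within-group SD of the 9 (0.165), had log2 levels of 13.76 to 14.06 in IL-1_1, 13.62 to 13.64 in IL-1_4 and 13.54 to 13.96 in IL-2_3, against 13.49 to 13.87 in M82. Its IL-1_1 arrays lay above all IL-1_4 arrays, but 40% of all probe sets did not overlap between IL-1_1 and IL-1_4. The PSBR difference of 0.29 was not called (limma adjusted p = 0.112). PSBR was bright on every array, at the 98.7th percentile of mean intensity, and saturation was not examined.

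None of the 5 photosystem probe sets was called in any of the 3 lines against M82, nor was GSA-AT. At an unadjusted p of 0.05 the count was 1 in IL-1_1 (PSBR, 0.24, limma adjusted p = 0.132) and 0 in the other lines. The median log2 difference of the 5 was -0.04 for IL-1_1, 0.01 for IL-1_4 and -0.06 for IL-2_3, close to the medians of all probe sets. The carbon fixation list matched 6 probe sets (4 with the symbol ca2 and 2 with TPI), and 0 of 6 were called in each line. This list did not follow the CAB genes from array to array. The ca2 probe set with the lowest r with CAB4 (-0.79) was at 7.84 in IL-1_1 replicate 1 (5.48 to 6.44 in the other IL-1_1 arrays), at 7.06 in IL-2_3 replicate 4 (4.96 to 5.75) and at 6.09 in M82 replicate 1 (4.92 to 5.67). It was highest of its group in the arrays in which the CAB genes were lowest, which follows in part from its choice by r. The other ca2 probe sets had an r with CAB4 of -0.68, 0.27 and 0.23, and the TPI probe sets of -0.45 and -0.19.

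**Figure D5:**
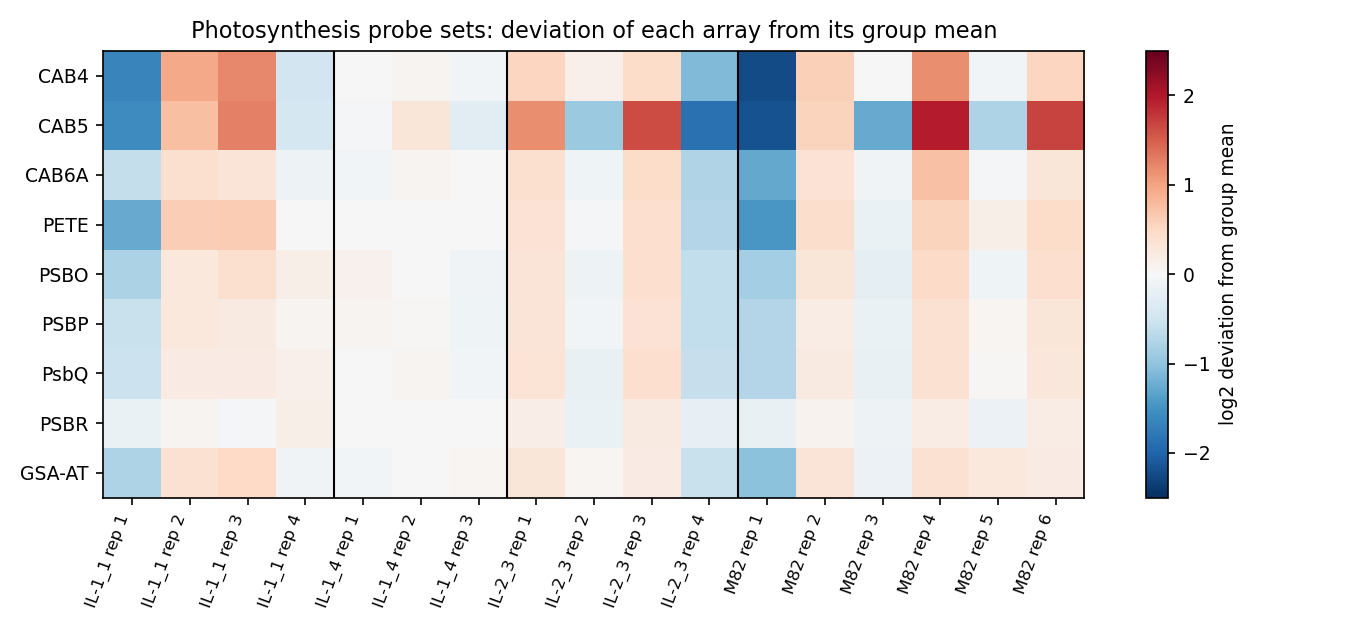
Log2 deviation of each array from its group mean (colour scale, red above and blue below) for CAB4, CAB5, CAB6A, PETE, PSBO, PSBP, PsbQ, PSBR and GSA-AT (rows), with the arrays of IL-1_1, IL-1_4, IL-2_3 and M82 as columns. IL-1_1 replicate 1, IL-2_3 replicate 4 and M82 replicate 1 are blue for all 9 probe sets, and the IL-1_4 columns are pale.

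By the likeness rule, the 5 named genes with the highest r over the 17 arrays were listed for each CAB gene among 906 named probe sets. For CAB4 they were PETE (0.968), GSA-AT (0.960), XTH1, a xyloglucan-modifying enzyme (0.958), the fructokinase gene FRK2 (0.941) and POR2 (0.938). For CAB5 they were PSBO (0.926), the alcohol dehydrogenase gene ADH2 (0.923), PSBP (0.921), LOC543978 (0.901) and LOC544217 (0.890). For CAB6A they were PSBP (0.936), PSBO (0.932), LOC543978 (0.931), mdh (0.925) and PETE (0.902). The median r of all named probe sets was between -0.11 and -0.10, and arrays that stand apart enter every one of these values.

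The light signalling list held 10 probe sets of 9 genes. COP1, whose product in Arabidopsis takes part in degrading activators of light responses, had log2 levels of 11.28, 10.96, 10.79 and 11.24 in IL-1_1, against a lowest, median and highest of 10.05, 10.37 and 10.98 in M82. Its IL-1_1 level overlapped M82 only through M82 replicate 1, the array in which the CAB genes were lowest. In IL-1_1 against M82, 12.3% of all probe sets were called in either direction, and 6.48% were called higher. COP1 was the 1 probe set of 10 called there (log2 difference 0.66, SE 0.18, limma adjusted p = 0.0318). That count is not above the share called in either direction. The COP1 call was lost with the replicate block (adjusted p = 0.0597) and in a fit of only IL-1_1 and M82 (0.0719). With the score that kept the group means the difference was 0.31 (adjusted p = 0.108). The adjusted p was between 0.00452 and 0.103 over the alternatives that leave out 1 array. It was lost without IL-1_1 replicate 1 or 4 or M82 replicate 2, 3, 4 or 5, in each case with a log2 difference of at least 0.58.

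Against IL-1_4, 2 of the 10 were called higher in IL-1_1 and 0 lower. Over all probe sets 8.5% were called higher and 17.7% in either direction. COP1 averaged 11.07 ± 0.24 in IL-1_1 (SD, n = 4) and 10.31 ± 0.11 in IL-1_4 (n = 3), a log2 difference of 0.76 (limma adjusted p = 0.0271). CRY2, a blue light receptor, averaged 11.05 ± 0.21 in IL-1_1 and 10.25 ± 0.15 in IL-1_4, a difference of 0.80 (adjusted p = 0.0413). Both calls were lost without replicate 1 or 4 of IL-1_1 or any 1 of the 3 IL-1_4 arrays. The CRY2 call was also lost without M82 replicate 3 or IL-2_3 replicate 3. The replicate block lost both (adjusted p = 0.0512 for COP1 and 0.0706 for CRY2), and with the score that kept the group means the differences were 0.35 for COP1 and 0.32 for CRY2 (adjusted p = 0.107 and 0.222). In IL-1_1 against M82, CRY2 differed by 0.67 (limma adjusted p = 0.0508) and DDB1, also on this list, by -0.20 (0.058). Neither was called. The DDB1 levels of IL-1_1 did not overlap those of M82, as for 7.35% of all probe sets. No probe set of this list was called in IL-1_4 or IL-2_3 against M82.

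Markers of the tissue were measured in the same arrays. The carpel and young fruit list matched 5 probe sets, and TAGL1, a MADS-box gene of carpel and fruit, had log2 levels between 10.78 and 11.23 in all 17 arrays. The others varied more, and TDR8 ran from 4.13 to 9.12. In IL-1_1 against M82, 3 of the 5 were called higher, where 6.48% of all probe sets were: fsm1, a gene of early fruit growth, by 2.01, TDR4, a MADS-box gene, by 1.31 and TDR8 by 3.03 on the log2 scale (limma adjusted p = 0.0391, 0.0354 and 0.0165). All 3 calls were lost in a fit of only IL-1_1 and M82 and without IL-1_1 replicate 1 or 4. The calls of fsm1 and TDR4 were also lost without M82 replicate 2, 3, 4 or 5, and that of fsm1 without IL-1_1 replicate 3, IL-1_4 replicate 2 or 3 or IL-2_3 replicate 1. None of the 5 was called in IL-1_4 or IL-2_3 against M82.

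The mean of the 5 carpel probe sets ranged over 10.36 to 11.33 in IL-1_1, 9.91 to 10.45 in IL-1_4, 10.01 to 10.43 in IL-2_3 and 9.02 to 10.84 in M82. It was highest in IL-1_1 replicate 1 and in M82 replicate 1, the arrays in which the CAB genes were lowest, but not in IL-2_3 replicate 4. In M82 replicate 1, 4 of the 5 were at their highest among the M82 arrays, and fsm1 was at 12.73 there against 8.64 to 11.75 in the others. TAGL1 went the other way and was lowest there, at 10.78 against 10.83 to 11.11. In IL-1_1 replicate 1, 2 of the 5 were highest of their group, and in IL-2_3 replicate 4 it was 1 of 5. TAGL1 was again lowest of its group in IL-2_3 replicate 4, at 11.08 against 11.12 to 11.23. LEA14, the only match of the seed and embryo list, was at 14.17 in IL-1_1 replicate 1 (12.55 to 12.83 in the other IL-1_1 arrays), at 12.12 in IL-2_3 replicate 4 (12.77 to 13.56) and at 12.52 in M82 replicate 1 (12.23 to 12.56). It was thus highest of its group in the first of these low-CAB arrays, lowest in the second and neither in the third. The pollen receptor kinase genes PRK1, PRK2 and PRK3 were between 3.69 and 5.01, where the lowest value of an array was between 3.31 and 3.64. The part of tissue makeup or stage in the CAB and COP1 levels was not tested.

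Array quality was compared with the CAB levels as well. Array medians were between 9.99 and 10.06, and arrays of 1 group correlated at 0.949 to 0.996 over all probe sets. The difference between 3' and 5' probe sets of the control transcripts was highest in M82 replicate 5 and IL-1_4 replicate 1, which were not among the 3 arrays lowest in CAB levels. M82 replicate 5 lay below its group mean by 0.071 for CAB4, 0.76 for CAB5 and 0.042 for CAB6A, and IL-1_4 replicate 1 was the lowest IL-1_4 array for CAB6A, at 12.81. Averaged over the actin, ef1a and gapdh controls, the difference was highest of its group in IL-2_3 replicate 4 (0.148). In M82 replicate 1 it was 0.275, below only replicate 5 (0.411). In IL-1_1 replicate 1 it was 0.160, below only replicate 4 (0.196). For the gapdh control alone the difference was highest of its group in all 3 low arrays. It was 0.306 in IL-1_1 replicate 1, 0.208 in IL-2_3 replicate 4 and 0.365 in M82 replicate 1. Its part in the CAB levels was not tested.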

How the data were processed

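The values are the authors' deposited log2 probe set intensities, 1 column per array, with no further normalization. They were made with affy, per the submitters' processing notes, and neither its version nor its background correction, summarization and log base is stated in the sources used. Base 2 was inferred from the range. Of 10209 probe sets, 171 controls (108 AFFX and 63 RPTR) were left out. Symbols come from the platform annotation of 2007: 909 of 10038 probe sets (9.06%) have 1 symbol, 0 several and 9129 none. No detection calls were used.

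All 17 arrays entered 1 limma fit (limma 3.58.1, R 4.3.3) with 1 mean per group and no covariate, and two-sided p-values received a Benjamini-Hochberg adjustment over 10038 probe sets, with calls at 0.05. Differences between CAB genes were compared by exact permutation, and correlations by 100000 permutations. The fit was run on simulated normal values, drawn independently for each probe set with an equal SD in all groups. They lacked the shared component and the unequal spread of these arrays, so calls under those were not tested. The number of arrays limits the precision. Members, lists, markers and the likeness rule (the 5 named probe sets with the highest r) were chosen with earlier results of these data known. Alternatives were normalization, a filter on dim probe sets, spread models, covariates, a replicate block and left-out arrays. With group means subtracted, same-numbered arrays of line and M82 correlated at -0.705 to 0.605, so numbers were not taken as pairs. Highest were replicates 1 and 2 of IL-1_1, at 0.605 and 0.593, while its replicates 3 and 4 were at -0.174 and -0.249.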

Additional observations from a re-analysis of the deposited data

Results flagged for a closer look

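Among 102 groups of 4 or 6 arrays examined, 12 held an array far from the others, judged by its gap to the next array over the range. Chance gives about 1 in 20 for independent, normally distributed values. These groups share arrays and genes that move together, so the count cannot be set against that rate. In M82 replicate 1, the log2 level of CAB4 was 10.17 (12.32 to 13.56 in the other M82 arrays), that of PETE was 11.36 (12.65 to 13.38) and that of GSA-AT was 10.85 (11.73 to 12.25). In the same array CAB4 minus CAB6A was -1.27, against -0.35 to 0.11 in the other M82 arrays. In IL-1_1 replicate 1, PsbQ was at 12.53, against 13.19 to 13.28 in the other IL-1_1 arrays, and the homeobox gene TKN3 was at 6.56, against 5.79 to 5.85. TKN3 was at 8.40 in M82 replicate 3, against 5.60 to 6.18 in the other M82 arrays. Of 2 CRY1A probe sets, 1 was at 8.63 in M82 replicate 5, against 10.23 to 10.57. Of 4 ca2 probe sets, 1 was at 5.29 in IL-2_3 replicate 4, against 4.34 to 4.48. In IL-2_3 replicate 3 fsm1 was at 10.17, against 11.39 to 11.56, and in IL-1_1 replicate 3 TDR8 was at 6.69, against 8.75 to 9.12. LEA14 was at 12.23 in M82 replicate 3, against 12.48 to 12.56.

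Between lines, COP1 was higher in IL-1_1 than in IL-1_4 by 0.76 and CRY2 by 0.80 on the log2 scale (limma adjusted p = 0.0271 and 0.0413). Leaving out 1 array at a time ended the COP1 call in 5 of 17 cases and the CRY2 call in 7 of 17. The replicate block ended both (0.0512 and 0.0706), and with the axis score that kept group means the differences were 0.35 and 0.32 (adjusted p = 0.107 and 0.222). A test of IL-1_1 against IL-2_3 called neither gene (adjusted p = 0.191 for each).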

How the results depend on the processing

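Of 498 alternative values of the 18 CAB changes, 2 passed the threshold and 43 had the opposite sign, and none of 96 alternative values of differences between CAB genes passed. With the planned axis score as a covariate, CAB4 was called in IL-1_1 against IL-1_4 (-1.11, limma adjusted p = 0.0237); that score is uncorrelated with the groups by construction, so changes stay and errors shrink. Counts of all called probe sets were then 3747, 108 and 147 in IL-1_1, IL-1_4 and IL-2_3 against M82, and 4110, 2627 and 285 in IL-1_1 against IL-1_4, IL-1_1 against IL-2_3 and IL-1_4 against IL-2_3. Without a covariate the count in IL-1_1 against IL-1_4 was 1779 of 10038.

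The score with group means kept was chosen after those results were seen. It gave counts of 550 (IL-1_1 against M82), 104 (IL-1_4 against M82), 781 (IL-1_1 against IL-1_4) and 238 (IL-1_4 against IL-2_3). CAB4, CAB5 and CAB6A were then 0.74, 0.91 and 0.73 in IL-1_1 against M82, CAB6A being called (adjusted p = 0.0492). They were 0.34, 0.68 and 0.69 in IL-1_1 against IL-1_4 and 0.32, 0.97 and 0.46 in IL-1_1 against IL-2_3. In IL-1_4 against IL-2_3, CAB4 was -0.017 and CAB6A -0.23. COP1 in IL-1_1 was 0.31 against M82 and 0.35 against IL-1_4, and CRY2 was 0.32 against IL-1_4, none of them called (adjusted p = 0.108, 0.107 and 0.222).

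With array weights the counts were 2352, 157 and 470 in IL-1_1, IL-1_4 and IL-2_3 against M82, and 3384, 1448 and 1937 in IL-1_1 against IL-1_4, IL-1_1 against IL-2_3 and IL-1_4 against IL-2_3. CAB5 and CAB6A were then -0.11 and -0.11 in IL-1_4 against M82 and -0.061 and -0.24 in IL-1_4 against IL-2_3, and CAB6A was 0.12 in IL-1_1 against IL-1_4. Fits of only the 2 groups compared gave 379 (IL-1_1 against M82), 60 (IL-2_3 against M82) and 238 (IL-1_1 against IL-2_3), and COP1 in IL-1_1 against M82 was not called (adjusted p = 0.0719). The replicate block gave 817 in IL-1_1 against M82 and turned CAB4 minus CAB5 in IL-1_4 against M82 to -0.26; it changed no CAB call, and COP1 (adjusted p = 0.0597 against M82, 0.0512 against IL-1_4) and CRY2 (0.0706 against IL-1_4) were no longer called in IL-1_1.

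Leaving out sets of arrays was chosen after seeing the data. The 3 arrays farthest along the axis were IL-1_1 replicate 1, IL-2_3 replicate 4 and M82 replicate 1, the same low-CAB arrays left out above. Without them the counts were 1918 in IL-1_1 against M82 and 873 in IL-1_1 against IL-2_3. CAB6A was then -0.082 in IL-1_4 against M82, 0.12 in IL-1_1 against IL-1_4 and -0.21 in IL-1_4 against IL-2_3. Without the 2 arrays of highest 3' to 5' difference, the counts were 557 in IL-1_1 against M82 and 950 in IL-1_1 against IL-1_4, and the COP1 and CRY2 calls were lost (adjusted p between 0.0615 and 0.0746). The cause of these shifts was not tested.

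Leaving out 1 array at a time gave counts of 421 to 3087 in IL-1_1 against M82, the highest without M82 replicate 1. The count was 48 to 70 in IL-1_4 and 68 to 99 in IL-2_3 against M82, 605 to 2497 in IL-1_1 against IL-1_4, 299 to 832 in IL-1_1 against IL-2_3 and 111 to 182 in IL-1_4 against IL-2_3. Against M82, CAB4 ranged over -0.91 to 0.085, 0.20 to 0.88 and -0.29 to 0.52 in IL-1_1, IL-1_4 and IL-2_3, CAB5 over -0.79 to 0.16, 0.048 to 0.87 and -0.88 to 0.29, and CAB6A over -0.16 to 0.29, -0.082 to 0.32 and -0.12 to 0.39. Between lines, CAB6A ranged over -0.21 to 0.12 in IL-1_1 against IL-1_4, over -0.29 to 0.16 in IL-1_1 against IL-2_3 and over -0.21 to 0.19 in IL-1_4 against IL-2_3, and CAB5 over -0.65 to 0.52 in IL-1_1 against IL-2_3. CAB4 minus CAB5 ranged over -0.34 to 0.14 in IL-1_1 and -0.072 to 0.41 in IL-1_4 against M82, and CAB4 minus CAB6A over -0.17 to 0.14 in IL-2_3.

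In IL-1_1 against M82, leaving out 1 array ended the call of fsm1 in 10 of 17 cases, of TDR4 in 6 and of TDR8 in 2. The score with group means kept gave 1.02, 0.71 and 1.99 for them (adjusted p = 0.211, 0.192 and 0.0864). The replicate block ended the calls of fsm1 (0.0547) and TDR4 (0.0558), as did leaving out the 2 arrays of highest 3' to 5' difference (0.0928 and 0.0893).

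CAB5 has no value when the dimmest 25% are left out, since its mean lies below that limit. Each CAB gene has 1 probe set, so analysis by probe set is the same as by gene. Signal over background was not examined.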
